A study of Mus musculus with 2 samples.

Results

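The genes described here are those of Toll-like receptor signalling and of the transcription factor NF-kappaB, measured in KLS cells, a fraction of mouse bone marrow sorted as lineage-negative, c-kit-positive and Sca-positive. They were chosen by name, as the probe sets that the platform annotation assigns to 1 of 42 listed genes. Of these, 38 genes had a probe set of their own, out of 18193 genes on the array, with 80 probe sets in all. The expression of Irak4, Traf3, Chuk and Nfkb1 was not analysed here. The comparison was between wild type mice and mice in which the gene for TIF1γ (Trim33), a transcriptional regulator, had been conditionally inactivated, labelled TIF1γ Δ/Δ. Each genotype was measured on 1 Affymetrix array from 25 ng of total RNA. The sources used here do not give the Cre driver, the age, sex and strain of the mice or the number pooled. With 1 array a genotype there is no replicate check, no SD and no p-value, and every difference below compares those 2 arrays.

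Toll-like receptors are membrane proteins that bind conserved microbial molecules, some at the cell surface and some in endosomes. Most signal through the adaptor MyD88 and kinases of the IRAK family to TRAF6 and TAK1 (Map3k7), which activate the IκB kinase complex. That complex marks the IκB proteins for destruction and so releases NF-kappaB dimers to the nucleus, where they switch on inflammatory genes and also their own inhibitors. Stem and progenitor cells of the bone marrow are known to carry some of these receptors, and mature neutrophils, monocytes and macrophages carry more.

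Of the 11 measured receptors and the proteins that assist them, 5 were at least 2-fold lower in TIF1γ Δ/Δ cells. Of the 12 measured kinases, NF-kappaB factors and inhibitors, 0 were 2-fold apart in either direction by the probe set that stands for each. Most measured genes of the array, 10722 of 11724, were likewise under 2-fold apart. A further probe set of Nfkbiz, a nuclear IκB protein listed with the inhibitors, was 5.81-fold lower. Ly86 was 10.8-fold lower, Tlr6 6.58-fold lower and the target gene Cd83 at least 6.21-fold lower. A gene counted as measured when its signal reached the floor, the median signal of its array, on at least 1 array. This was so for 35 of the 38 genes, and 29 were measured on both arrays. Of the 11 receptors and assisting proteins, 8 were measured on both arrays. The other 3, with Tlr3 among the 5 lower ones, reached the floor on the wild type array alone, which fixes the sign of their differences. Relb, among the 12, reached it on the TIF1γ Δ/Δ array alone and has no direction. Of the 35, 9 were at least 2-fold lower and 0 at least 2-fold higher. For 2 of the 9, Tlr3 and Cd83, the difference is a bound. Both reached the floor on the wild type array alone, which fixes the sign of the bound. Over all 11724 measured genes, 6.01% were at least 2-fold lower and 2.53% at least 2-fold higher. The median log2 difference, TIF1γ Δ/Δ minus wild type, was -0.18 over the 35 members and 0.00 over all measured genes. At a threshold of 1.5-fold, 15 members were lower and 3 higher, beside 15.3% and 13.5% of all measured genes.

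**Figure D1:**
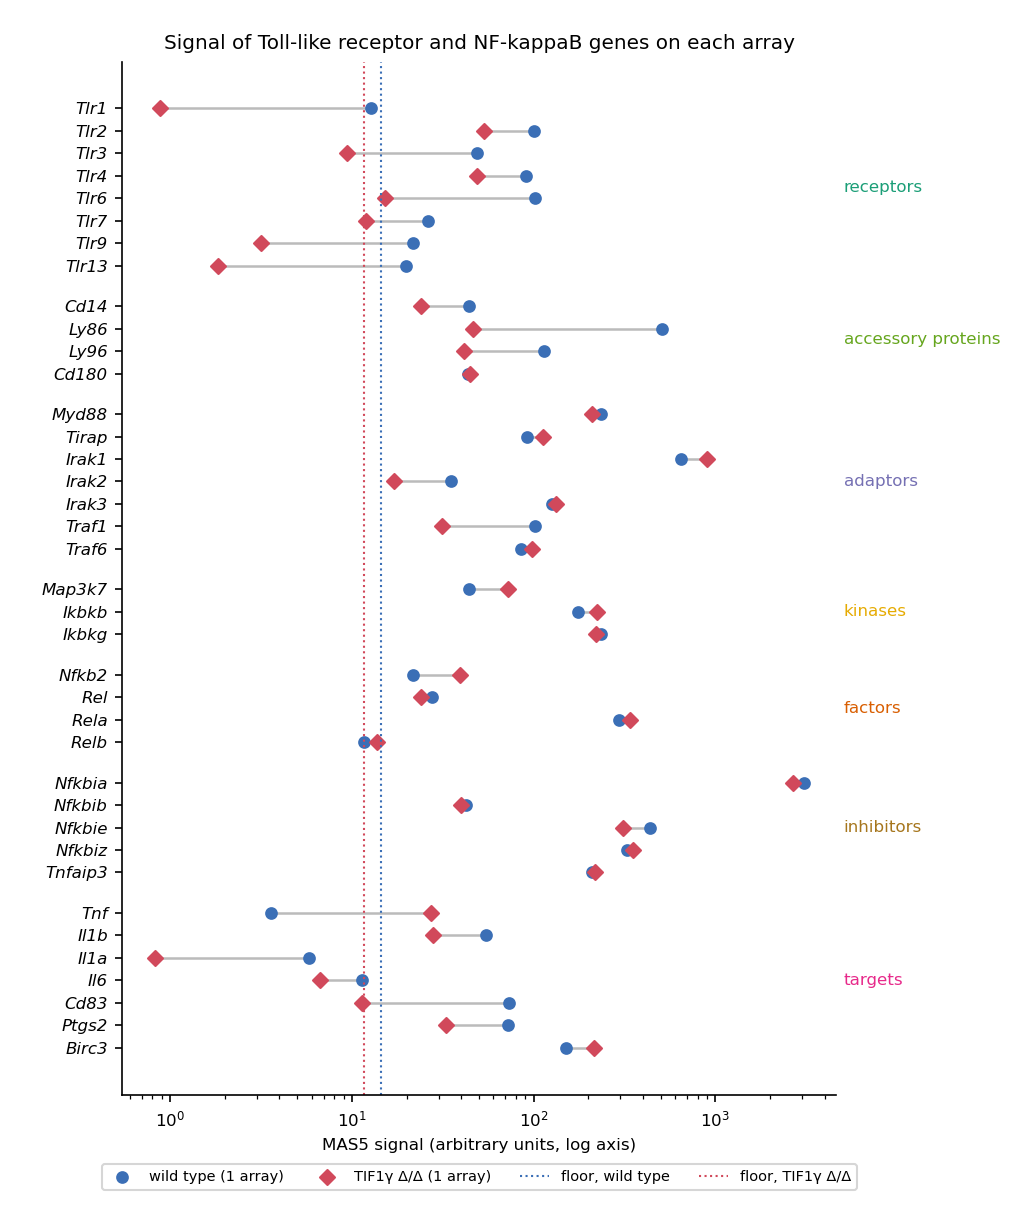
MAS5 signal (horizontal log axis, arbitrary units) of 38 Toll-like receptor and NF-kappaB genes on the wild type array (circles) and the TIF1γ Δ/Δ array (diamonds), by role, with each array's floor as a dotted line; each point is 1 array. The diamonds of all 8 receptors lie to the left of the circles, but only 4 receptors reached both floors. Of the others, Tlr3, Tlr9 and Tlr13 reached the wild type floor alone and Tlr1 neither. Ly86 goes from 508 to 46.2, and none of the kinases, factors and inhibitors is 2-fold apart by the probe sets shown. Of all 11724 measured genes, 10722 are likewise under 2-fold apart.

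Markers of mature cells differed between the same arrays in the same direction as the receptors. All 9 mature neutrophil markers with a probe set were at least 2-fold lower, and their summed signal was 30877 for the wild type against 134 for TIF1γ Δ/Δ. Of 12 measured monocyte and macrophage markers 11 were at least 2-fold lower, with summed signals of 7359 and 939 over the 13 that had a probe set. S100a9, Lcn2, Ltf, Mmp8, Mmp9 and Cxcr2 among the first, and Adgre1, C1qa, C1qb, C1qc and Vcam1 among the second, did not reach the TIF1γ Δ/Δ floor. Itgam, also among the second, was under the floor on both arrays. The summed signal of 7 B cell markers was 662 and 204, of 8 dendritic cell markers 1825 and 904, of 8 T and NK cell markers 1697 and 1281 and of 6 erythroid markers 3056 and 871. Single genes weigh heavily in some sums. Flt3 (464 and 534) is in both the dendritic cell and the KLS list, and Nkg7 (1249 and 1090) makes up most of the T and NK cell sums. All 8 KLS markers with a probe set, Kit, Cd34, Flt3, Procr, Slamf1, Meis1, Hoxa9 and Gata2, were measured on both arrays, with sums of 5296 and 7319. Ly6a, which encodes Sca-1, had no probe set of its own here. Fewer cells of a type and less RNA per cell cannot be told apart in such samples, and the part of the mature cell markers in the results was not tested. The targeted gene, Trim33, gave 379 and 172 (2.17-fold lower), and Gapdh, a check of RNA integrity, had 3' to 5' ratios of 7.86 and 7.38.

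Of the 8 receptors, 4 were measured on both arrays, and these 4 had negative differences with a median of -0.999. A further 3, Tlr3, Tlr9 and Tlr13, reached the floor on the wild type array alone, which fixes the sign of their bounds. Tlr6, which pairs with TLR2 to bind diacylated lipopeptides, had a signal of 102 in wild type and of 15.2 in TIF1γ Δ/Δ cells (log2 -2.72). Its partner Tlr2 gave 101 and 53.5 (log2 -0.89). The signal of Tlr6 on the TIF1γ Δ/Δ array was thus just above the floor of 11.7, whereas that of Tlr2 was well above it. Tlr1, the other partner of TLR2 and the direct neighbour of Tlr6 on chromosome 5 with 0 protein-coding genes between them, was under the floor on both arrays.

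Tlr4, the receptor for lipopolysaccharide, gave 90.9 and 49.0 by the probe set 1418162_at (log2 -0.87). A second probe set of Tlr4, 1418163_at, gave 44.2 and 43.1 (log2 -0.01), so the lower signal was seen in 1 of the 2 probe sets measured on both arrays. A further probe set of Tlr4, 1442827_at, reached the wild type floor of 14.4 (17.2) but not that of TIF1γ Δ/Δ (9.86).

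The receptors of the endosome, which bind nucleic acids, had low signals. Tlr3, a sensor of double-stranded RNA, had signals of 48.6 in wild type and, under the floor, 9.38 in TIF1γ Δ/Δ cells, so it was at least 4.10-fold lower. The single-stranded RNA sensor Tlr7 gave 26.2 and 11.9 (log2 -1.11, 2.16-fold lower), the latter barely above the TIF1γ Δ/Δ floor of 11.7. The signals of Tlr9, which binds unmethylated CpG DNA, were 21.7 and 3.18, and those of Tlr13, which binds bacterial ribosomal RNA, were 19.8 and 1.83. Both passed the floor on the wild type array alone, and the bounds were at least 1.83-fold lower for Tlr9 and at least 1.67-fold lower for Tlr13. Unc93b1, which carries these receptors to the endosome and is no member of the list, gave 162 and 124 (log2 -0.37). Of the 3 receptors past 2-fold, Tlr6 has 1 probe set, so alternatives that pick or average probe sets could not move it. It was past 2-fold under all 11 alternative settings of the values. Tlr3 was not with the floor at the 65th percentile (log2 -0.61), nor Tlr7 under quantile scaling (log2 -0.84), loess scaling (log2 -0.87), a common floor (log2 -0.84) or a pseudocount of 16 (log2 -0.58). Tlr3 had a value under 10 of the 11 alternatives and Tlr7 under 9. The second probe set of Tlr3 (12.1 and 0.583) was under both floors. So were the other probe sets of Tlr7, at 2.24 and 8.31 and at 8.5 and 6.65.

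Of the 4 accessory proteins, 3 were lower and 2 of these at least 2-fold. Ly86 (MD-1), the secreted partner of the receptor homologue CD180, had signals of 508 in wild type and 46.2 in TIF1γ Δ/Δ cells (log2 -3.43), the largest difference among the 35 members. Cd180 itself gave 43.7 and 44.6 (log2 0.05). Of the 2 genes of this receptor complex, Ly86 was thus lower and Cd180 level. Ly96 (MD-2), the protein through which TLR4 holds lipopolysaccharide, gave 114 and 41.6 (log2 -1.43, 2.69-fold lower). Cd14, which hands lipopolysaccharide to that complex, gave 44.0 and 24.1 (log2 -0.85). All 3 genes of the lipopolysaccharide receptor complex thus had a lower signal on the TIF1γ Δ/Δ array, with Ly96 past 2-fold and Tlr4 and Cd14 short of it, although for Tlr4 the second probe set was level. Over the 11 alternatives Ly86 lay between -3.56 and -3.06 and Ly96 between -1.47 and -1.15. Each has 1 probe set, and the alternatives of probe set and of floor left both values unchanged.

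**Figure D2:**
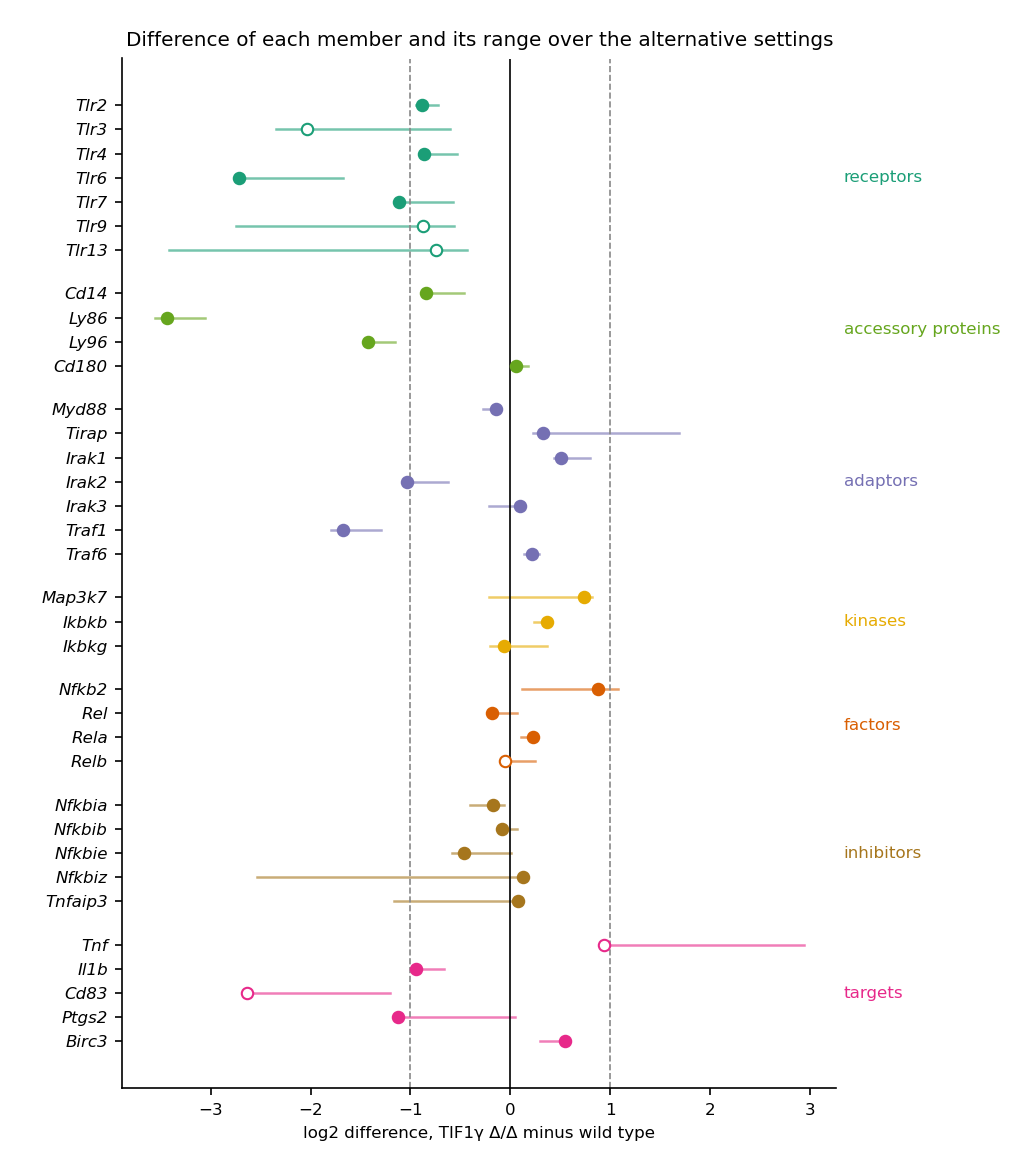
Log2 difference, TIF1γ Δ/Δ minus wild type, of the 35 measured members by role; filled points are genes measured on both arrays, open points are genes under the floor on 1 array, lines give the range over the alternative settings that yield a value, and dashed lines mark 2-fold. The 4 receptors with filled points and 3 of 4 accessory proteins lie left of 0, and the points of the 12 kinases, factors and inhibitors lie inside the dashed lines, although the lines of Nfkbiz (to -2.54), Tnfaip3 (to -1.16) and Nfkb2 (to 1.08) cross them.

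Among the adaptors and their kinases, 2 of 7 measured genes were at least 2-fold lower, and the median was 0.09. Myd88, the shared adaptor of most Toll-like receptors, gave 234 and 209 (log2 -0.14). Tirap, which brings MyD88 to TLR2 and TLR4, gave 91.8 and 113 (log2 0.32). Its second probe set was at 2.24, under the wild type floor, and 18.4, and the mean of its probe sets gave a log2 of 1.68, past 2-fold. Irak1, the kinase that passes the signal from MyD88 to TRAF6, gave 644 and 902 (log2 0.51), and its 4 probe sets measured on both arrays lay between 0.23 and 0.80. Traf6, the ubiquitin ligase downstream of it, gave 85.2 and 97.6 (log2 0.22). These 4 genes of the common route differed by less than 1.5-fold by the probe sets that stand for them.

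Traf1, a TRAF protein without a RING domain that is itself induced by NF-kappaB, gave 102 and 31.4 (log2 -1.68, 3.20-fold lower). Its second probe set passed the floor on the wild type array only (16.6 and 0.554). Irak2, a kinase of late signalling, gave 35.3 and 17.0 (log2 -1.03), and it missed 2-fold under quantile scaling (log2 -0.79), loess scaling (log2 -0.85) and a pseudocount (log2 -0.62). Irak3 (IRAK-M), the family member that dampens signalling and is known from monocytes and macrophages, gave 126 and 132 (log2 0.09). The IRAK genes thus went different ways, with Irak1 higher by 1.42-fold, Irak3 level and Irak2 lower by 2.05-fold.

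The 3 measured kinase genes, 4 measured NF-kappaB genes and 5 genes listed as inhibitors went both ways. Of the 11 of them measured on both arrays, 5 were below 0 and 6 above, with a median of 0.072 and a range from -0.47 to 0.88. Map3k7 (TAK1) gave 44.2 and 72.6 (log2 0.74), but its 4 probe sets measured on both arrays ran from -0.78 to 0.78. Ikbkb, the catalytic subunit IKKβ, gave 176 and 224 (log2 0.37). For Ikbkg (NEMO), the regulatory subunit, the probe set standing for the gene gave 234 and 219 (log2 -0.07), whereas its 4 others measured on both arrays lay between 0.33 and 0.97.

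Of the NF-kappaB genes, Rela, the main activating subunit, gave 294 and 340 (log2 0.23). Rel, which encodes c-Rel, gave 27.6 and 24.0 (log2 -0.18). Nfkb2, whose p100 product is processed in the non-canonical route, gave 21.7 and 39.2 (log2 0.88). It passed 2-fold only under quantile and loess scaling, of the 11 alternatives, with a highest value of 1.08. Relb, the partner of p52, was at 11.7 and 13.7, under the wild type floor and barely above the other, so no direction can be given.

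Nfkbia, which encodes IκBα and is a target of NF-kappaB, gave 3069 and 2671 (log2 -0.18). Each of its 5 probe sets reached both floors, and all had a negative difference, from -0.62 to -0.18. Nfkbie (IκBε) gave 436 and 310 (log2 -0.47), and its other probe set 77.6 and 76.5. Nfkbib (IκBβ) gave 42.7 and 39.7 (log2 -0.08). Tnfaip3, the ubiquitin-editing enzyme A20 that ends NF-kappaB signalling, gave 210 and 218 (log2 0.07). With the mean of all its probe sets, 1 of which was under the floor on both arrays, Tnfaip3 was at -1.16. The brakes that NF-kappaB itself induces were thus under 2-fold apart by the probe sets that stand for them.

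Nfkbiz, which encodes the nuclear protein IκBζ, was the member whose probe sets differed most. The probe set standing for the gene, 1417483_at, had signals of 328 in wild type and 353 in TIF1γ Δ/Δ cells (log2 0.13), and 1448728_a_at gave 63.5 and 61.3 (log2 -0.03). The third, 1457404_at, gave 772 and 131 (log2 -2.54, 5.81-fold lower). When the probe set brightest on the wild type array stood for each gene, Nfkbiz was therefore at -2.54 and counted as lower. The sources used here do not say where on the transcript these probe sets lie.

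**Figure D3:**
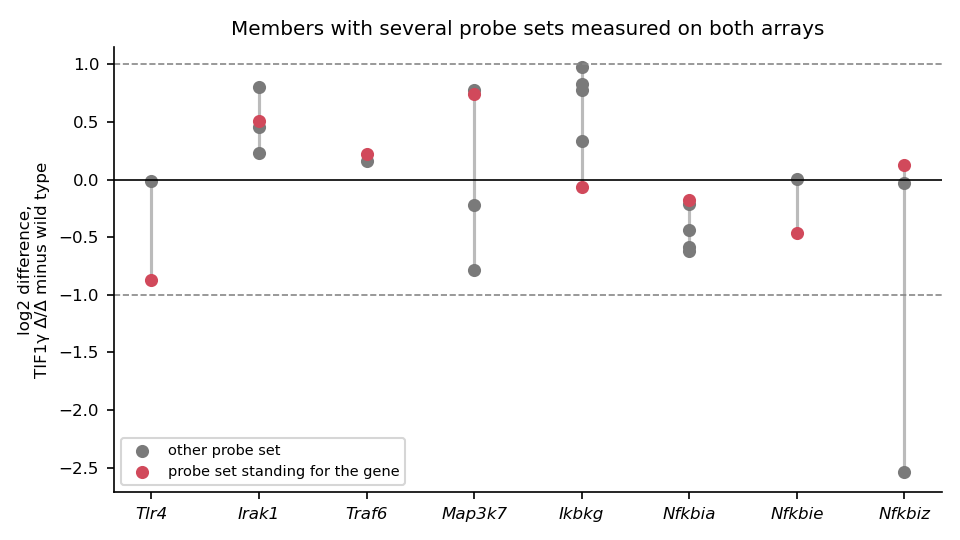
Log2 difference, TIF1γ Δ/Δ minus wild type (vertical axis), of every probe set measured on both arrays for the 8 members that have several; the coloured point is the probe set that stands for the gene, grey points are its others, and dashed lines mark 2-fold. The probe sets of Irak1 and Nfkbia each keep to 1 side of 0, those of Map3k7 lie on both sides, and 1 of the 3 of Nfkbiz lies at -2.54.

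None of the 9 members at least 2-fold lower had a second probe set measured on both arrays, and 5 of them have only 1 probe set. Tlr6, Ly86, Ly96, Traf1 and Cd83, 5 of the 9, were at least 2-fold lower under all 11 alternative settings of the values. Tlr6, Ly86, Ly96 and Cd83 have only 1 probe set, so the alternatives that pick or average probe sets could not change them. The alternative floors left Ly86 and Ly96 unchanged too. Settings that leave a value unchanged are no check of it. Between probe sets of the same gene, the pooled SD of the log2 difference was 0.452 over 4534 genes, which measures disagreement of probe sets and not of mice.

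The stretch just upstream of the gene start was read for the members in the RefSeq table of GRCm38.p6, which held 33 of the 42 genes. The 250 bases before each start were searched on both strands for the κB consensus, the site that NF-kappaB dimers bind. A match was present for 11 of the 33 genes, against 8.23% of all 27025 genes with such a window and 7.25% of all 32851 windows. Among factors and inhibitors 5 of 7 genes held a match, namely Nfkb2, Rel, Nfkbia, Nfkbie and Tnfaip3. Among receptors and accessory proteins 2 of 8 did (Tlr2 and Tlr3), and among targets 1 of 6 (Il6). Of the members at least 2-fold lower that have a window, 1 of 6 held a match, and of those under 2-fold apart 8 of 21. Another form of the site, tried first, matched 12 of the 33 genes and 5.31% of all genes, Tlr6 among them. For Tlr6 that match lies in a further window of the gene. By that form, 2 of the 6 lower members held a match, and 7 of the 21 under 2-fold apart. The smaller share among the lower members thus depended on the form of the site. A second motif, GAGGAAG, as bound by the myeloid factor PU.1, was present for 8 of the 33 genes and 12.0% of all genes, and for 0 of the 6 lower members. The windows below are shown because they set side by side self-regulating NF-kappaB genes, which were under 2-fold apart, and the most strongly lower receptor gene and accessory gene. Each is 1 window of the gene, ending at the base before its start, 5′ to 3′ on the gene's strand, and capitals mark letters in a match to the κB consensus on either strand.
Nfkbia, chr12:55492648-55492897, - strand: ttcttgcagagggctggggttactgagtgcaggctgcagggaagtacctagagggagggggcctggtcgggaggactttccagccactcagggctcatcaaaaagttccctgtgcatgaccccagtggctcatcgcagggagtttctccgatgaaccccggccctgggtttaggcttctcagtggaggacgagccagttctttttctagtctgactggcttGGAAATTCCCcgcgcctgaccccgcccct
Tnfaip3, chr10:19015411-19015660, - strand: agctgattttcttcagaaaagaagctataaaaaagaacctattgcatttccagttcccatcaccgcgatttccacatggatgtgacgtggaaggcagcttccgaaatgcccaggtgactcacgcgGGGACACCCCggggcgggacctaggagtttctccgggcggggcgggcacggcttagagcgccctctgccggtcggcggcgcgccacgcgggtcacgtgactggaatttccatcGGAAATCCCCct
Nfkb2, chr19:46304487-46304736, + strand: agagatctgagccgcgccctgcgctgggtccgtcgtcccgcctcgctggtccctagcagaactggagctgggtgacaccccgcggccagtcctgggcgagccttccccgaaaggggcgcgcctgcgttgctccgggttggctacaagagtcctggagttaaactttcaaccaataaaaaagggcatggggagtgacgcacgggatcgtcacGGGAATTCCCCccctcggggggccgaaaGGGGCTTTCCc
Rel, chr11:23770970-23771219, - strand: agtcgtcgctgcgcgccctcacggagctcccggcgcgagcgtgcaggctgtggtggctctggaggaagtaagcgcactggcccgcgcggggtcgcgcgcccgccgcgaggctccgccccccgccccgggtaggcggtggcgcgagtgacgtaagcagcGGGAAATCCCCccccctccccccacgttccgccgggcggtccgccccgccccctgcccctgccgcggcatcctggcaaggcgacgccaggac
Tlr6, chr5:64959167-64959416, - strand: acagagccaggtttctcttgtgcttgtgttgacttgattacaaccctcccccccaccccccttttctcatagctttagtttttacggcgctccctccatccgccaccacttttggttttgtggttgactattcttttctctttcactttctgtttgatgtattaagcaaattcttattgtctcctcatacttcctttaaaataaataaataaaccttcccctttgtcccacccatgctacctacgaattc
Ly86, chr13:37345095-37345344, + strand: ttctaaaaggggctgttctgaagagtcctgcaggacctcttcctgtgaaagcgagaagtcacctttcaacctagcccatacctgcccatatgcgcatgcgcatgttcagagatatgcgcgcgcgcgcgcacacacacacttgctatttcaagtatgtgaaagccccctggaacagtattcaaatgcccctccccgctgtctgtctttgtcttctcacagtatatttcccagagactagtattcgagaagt
In these windows the genes Nfkb2, Rel, Nfkbia and Tnfaip3 have matches, some of them overlapping, and Tlr6 and Ly86 have none. The match of Nfkbia lies 29 to 20 bases before the start, and the nearer match of Tnfaip3 lies 12 to 3 bases before it. The table gives a further window for Tlr6 and Tnfaip3 each and 2 more for Nfkb2, which are not shown. A match of letters is a description of these windows and not a measure of binding.

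Of the 7 inflammatory targets, 5 were measured and they went both ways, with 2 at least 2-fold lower. Cd83, a surface protein of activated dendritic cells and B cells, had signals of 73.5 in wild type and, just under the floor, 11.4 in TIF1γ Δ/Δ cells, so it was at least 6.21-fold lower. It counted as measured through its wild type signal alone, which fixes the sign of this bound. With the floor at the 65th percentile this bound was a log2 of -1.20. Ptgs2, the inducible cyclooxygenase COX-2, gave 72.6 and 32.8 (log2 -1.12). Its second probe set was at 5.66 and 12.9, and the mean of its probe sets gave a log2 of 0.042. Ptgs2 also missed 2-fold with a pseudocount (log2 -0.84).

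Il1b, which encodes the cytokine interleukin-1β, gave 54.4 and 27.8 (log2 -0.94). Birc3, the ubiquitin ligase cIAP2 that protects cells from death, gave 150 and 216 (log2 0.54). Tnf, which encodes tumour necrosis factor, gave 3.59, under the wild type floor, and 27.1, at least 1.91-fold higher. It was at least 2-fold higher under 5 of 10 alternatives that gave it a value, up to a log2 of 2.94 with no floor, where low signals are noisy. Il1a and Il6 were under the floor on both arrays. So among the cytokines, the Il1b signal was lower, and those of Il1a and Il6 were too low to compare. Tnf counted as measured through its signal in TIF1γ Δ/Δ cells alone. That fixes the sign of its bound, so no direction is drawn from it.

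**Figure D4:**
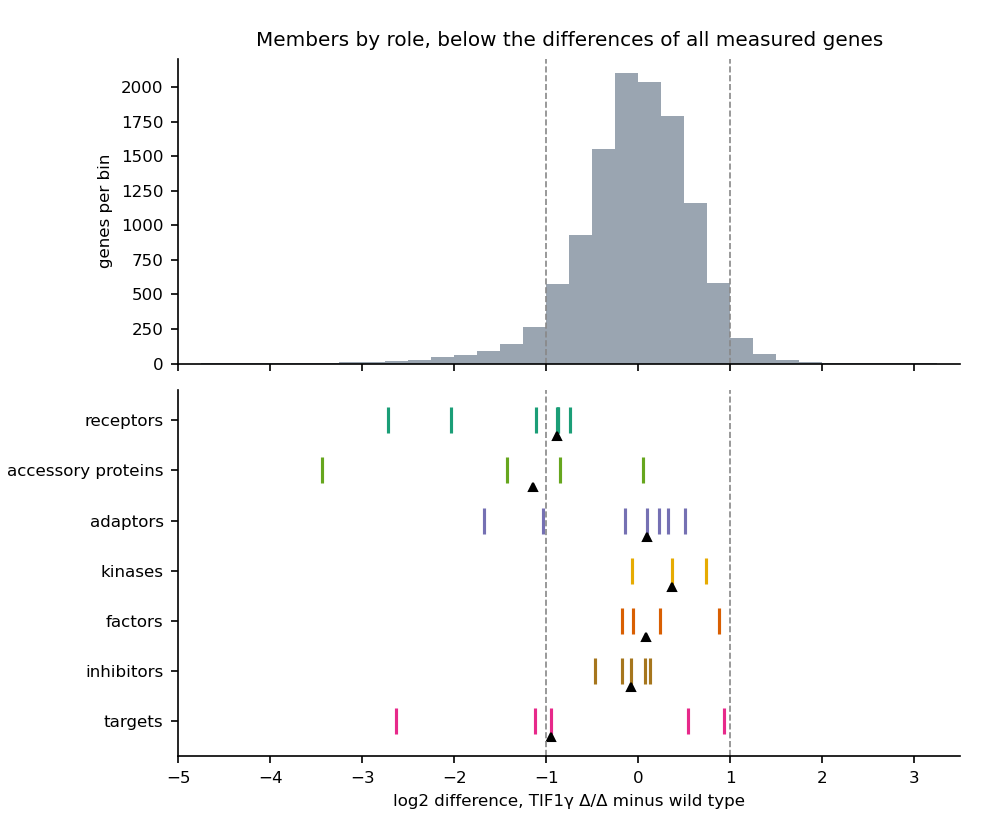
Histogram of the log2 difference, TIF1γ Δ/Δ minus wild type, of all 11724 measured genes (top, genes per bin of width 0.25, shown from -5 to 3.5) and the measured members by role (bottom, 1 tick per gene, triangles at the median of the role), with dashed lines at 2-fold. The medians, with genes under 1 floor at their bounds, are -0.89 for receptors, -1.14 for accessory proteins and -0.94 for targets, against 0.09 for adaptors, 0.37 for kinases, 0.09 for factors and -0.08 for inhibitors.

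A wider list of 82 other genes of the pathway was read in the same way, of which 67 were measured. Of these, 5 (7.46%) were at least 2-fold lower, near the 6.01% of all measured genes. At least 2-fold higher were 0, beside 2.53% of all measured genes, and the median was 0.04. None of the 22 measured adaptors and kinases of this list and none of its 14 measured genes listed as brakes was 2-fold apart, with medians of 0.13 and 0.28. Most measured genes of the array, 10722 of 11724, were under 2-fold apart too. Among the brakes, Cyld, a deubiquitinase, gave 293 and 367 (log2 0.35), and Tnip1, a partner of A20, gave 165 and 156 (log2 -0.06). The kinase Tbk1, which acts towards interferon genes, gave 842 and 869 (log2 0.07), and Tab2, an adaptor of TAK1, gave 988 and 1353 (log2 0.48).

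Of the 12 measured receptors and chaperones of this list, 2 (16.7%) were at least 2-fold lower, beside 6.01% of all measured genes. The interleukin-18 receptor Il18r1 gave 77.4 and 30.7 (log2 -1.31). Cd40, a receptor of antigen-presenting cells, gave 39.1 and 8.91 and was at least 3.30-fold lower. The receptors for tumour necrosis factor, which feed the same IκB kinases, were under 2-fold apart, with Tnfrsf1a at 284 and 399 (log2 0.52) and Tnfrsf1b at 128 and 132 (log2 0.07). Hsp90b1, the chaperone gp96 that folds Toll-like receptors, gave 747 and 1248 (log2 0.77).

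Among 19 measured targets of the wider list, 3 (15.8%) were at least 2-fold lower, beside 6.01% of all measured genes. Of the 16 measured on both arrays, 11 had a negative difference. Vcam1, an adhesion molecule that is also among the macrophage markers above, gave 1364 and 7.66 and was at least 115-fold lower. The neutrophil chemokine Cxcl2 gave 180 and 47.7 (log2 -1.89), and the chemokine Ccl5, also among the T and NK cell markers, gave 120 and 47.7 (log2 -1.31). Others lay nearer to 0 or above it, as Irf1 at 360 and 305 (log2 -0.22), Icam1 at 237 and 203 (log2 -0.20), Ccl4 at 104 and 158 (log2 0.63) and Sod2 at 907 and 1386 (log2 0.64). The signal of inflammatory targets was therefore not lower throughout.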

How the data were processed

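Total RNA of sorted KLS cells was measured on 2 Affymetrix arrays, 1 per genotype, and groups were taken from the genotype label. The deposited values are linear intensities per probe set, computed by the authors (MAS5, per the submitters' processing notes). The sources used here do not give its version or settings. The mean of the 45101 probe sets, with 2% trimmed at either end, was 100 on each array, so scaling had been done before deposit. MAS5 subtracts mismatch signals, so low values are noisy. Without the 64 control probe sets, 34945 had a single gene, and 34741 of these symbols were updated by Entrez identifier to RefSeq (GRCm38.p6).

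Each gene was represented by the probe set whose log2 signal, averaged over the arrays, was highest. Differences are log2 TIF1γ Δ/Δ minus log2 wild type, centred by the median (-0.024) over probe sets that reached both floors. The floor was each array's median, 14.4 for wild type and 11.7 for TIF1γ Δ/Δ. A signal under it was replaced by the floor and the fold printed as at least N-fold. The sign of such a bound is set by which array reached the floor, for lower and higher genes alike. No test was possible. The number of arrays limits the precision. The procedure was tested on simulated data, with changes larger than 2-fold placed in brighter genes only. That test does not cover differences near 2-fold or signals near the floor. The members and lists were chosen with earlier results of these data known, and the 2 promoter motifs and the windows shown were chosen after the values were seen. Every member could be named, and of the wider list all genes at least 2-fold apart, with some others named as examples after their values were seen. Python 3.11.15, numpy 2.4.6, pandas 2.3.3, statsmodels 0.14.6 and matplotlib 3.10.9 were used.

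There were 13 alternatives: values as deposited, quantile scaling, loess scaling, a floor at the 40th or 65th percentile, a common floor, no floor, the mean of a gene's probe sets, no shared probe sets, the probe set brightest in wild type, a pseudocount of 16 with no floor, and thresholds of 1.5-fold and 3-fold.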

Additional observations from a re-analysis of the deposited data

How the results depend on the processing

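The count of 9 members at least 2-fold lower stayed within 1.5 times of that under all 11 alternatives that kept the threshold, from 6 with the floor at the 65th percentile or with the pseudocount to 13 with no floor. It was 15 at a threshold of 1.5-fold and 5 at 3-fold. The count of members at least 2-fold higher, 0 in the main setting, was 2 under quantile scaling, 2 under loess scaling, 1 with the floor at the 40th percentile, 1 with no floor, 1 (Tirap) with the mean of all probe sets, 1 with the pseudocount and 3 at 1.5-fold. The median of the members was negative under all 11, and was -0.32 with no floor against -0.18. Ptgs2 turned to a log2 of 0.042 when its probe sets were averaged, since the dimmer probe set, at 5.66 in wild type cells, then counts too. Of the 9 lower members, 4 missed 2-fold under some alternative. With no floor, 16.7% of all genes were at least 2-fold lower against 6.01%, so counts from it carry little. No paired analysis was possible because each genotype had 1 array, and no array could be left out. Genes with signals near the floor, such as Relb, Tlr9 and Tlr13, have bounds or no direction.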
